A study of Rattus norvegicus with 24 samples.

Results

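The miR-218 family of the rat is encoded in introns of the Slit genes, which make secreted guidance cues for axons and migrating cells. Of the 1098 miRNAs counted in the PVN and the CEA, 4 belong to it, namely rno-miR-218a-5p, rno-miR-218b, rno-miR-218a-1-3p and rno-miR-218a-2-3p. They were taken by name from the table of counts and were also selected on a measured property, the nearly equal counts of miR-218a-5p and miR-218b. That equality is therefore described below without a test.

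Small RNA was sequenced from the paraventricular nucleus of the hypothalamus (PVN) and the central nucleus of the amygdala (CEA) of male Sprague-Dawley rats, bought at 7 weeks of age, with 3 libraries for each of 4 treatments in each nucleus and 24 in all. NC rats had no operation, and HT rats had part of the liver removed (partial hepatectomy). HT+EA rats were in addition given electroacupuncture at the ST 36 and SP 6 acupoints. Sessions of 30 min were given 24 h before the operation and directly after it. HT+SEA rats had needles at the same points without current. Rats of all groups were held in the restraint device, the NC and HT rats included, and brain tissue was sampled 24 h after the final treatment. The methods of the study divide 12 rats among the 4 groups, fewer than the 24 libraries. They say that a rat gave little tissue and that brain samples were taken from different rats of a batch. Which rats a library holds is not given, so whether PVN and CEA libraries of a treatment share rats is not known. The main tests over both nuclei took the libraries as independent, and p-values measure the spread between these libraries.

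A miRNA is cut from a hairpin whose 5p and 3p arms can each give a mature strand, and bases 2 to 8 of that strand, the seed, pair with target mRNAs. Usually 1 arm is kept and the other is degraded. The miR-218 hairpins lie within Slit2 and Slit3, and miR-218 is known as a neuronal miRNA that is very abundant in motor neurons. The PVN holds the neurons that drive the hypothalamic-pituitary-adrenal axis, and the CEA is the main output nucleus of the amygdala.

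The 4 mature sequences are shown because their identity decides what the counts can tell apart. They are those of RefSeq on the GRCr8 build, and the capitals mark the seed.
rno-miR-218a-5p: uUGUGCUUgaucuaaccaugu
rno-miR-218b: cAUGGUUAgaucaagcacaa
rno-miR-218a-1-3p: aAACAUGGuuccgucaagcac
rno-miR-218a-2-3p: cAUGGUUCugucaagcaccgcg
The 4 seeds differ from each other. None of them was shared with another miRNA of the table among the 637 of 703 known miRNAs that had a RefSeq mature sequence.

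The same miR-218a-5p is made from both hairpins, Mir218-1 within Slit2 (mature strand at chr14:66922413-66922433, minus strand) and Mir218-2 within Slit3 (chr10:20572547-20572567, plus strand), so its reads cannot be assigned to either gene. The 3p arms do tell the hairpins apart, with miR-218a-1-3p (chr14:66922374-66922394, minus strand) made from the Slit2 hairpin and miR-218a-2-3p (chr10:20572589-20572610, plus strand) from the Slit3 hairpin. Their longest shared run is 9 bases. The hairpins are given with the mature arms in capitals.
Mir218-1: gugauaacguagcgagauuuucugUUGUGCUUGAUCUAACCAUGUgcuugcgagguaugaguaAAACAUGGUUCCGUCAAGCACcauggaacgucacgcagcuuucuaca
Mir218-2: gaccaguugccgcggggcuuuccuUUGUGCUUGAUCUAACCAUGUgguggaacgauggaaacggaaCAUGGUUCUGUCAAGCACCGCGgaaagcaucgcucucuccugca

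The fourth member, miR-218b, is annotated in another hairpin, Mir3565, on the plus strand of the same stretch of chromosome 14 (chr14:66922414-66922433). It is the exact reverse complement of the first 20 bases of miR-218a-5p, as its hairpin shows.
Mir3565: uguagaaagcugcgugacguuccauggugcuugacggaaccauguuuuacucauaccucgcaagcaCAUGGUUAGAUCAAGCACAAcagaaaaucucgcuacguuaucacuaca
Counts that ignore the strand of a read would give each read of 1 to the other. How the miRNA counting treated strand is not given in the sources used here, and whether both names hold the same reads was not tested. For this reason miR-218a-5p and miR-218b are not taken as separate measurements.

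Over the 24 libraries, 5467052 reads were counted on miR-218a-5p and 5100720 on miR-218b, that is 93.3% as many. In single libraries the share ran from 89.1% (in PVN NC) to 96.2% (in PVN HT). It was 94.0% ± 1.75 (SD, n = 12) in the PVN and 92.8% ± 0.636 in the CEA. The log2 levels of the pair had a Pearson r of 0.999 over the 24 libraries, and of 0.995 after the group means were subtracted, where a pair that shares its reads must be alike.

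The pair was not alone in this. In the table, 44 pairs of known miRNAs overlap by at least 15 bases on opposite strands, and in 32 of them the less abundant member had at least 90% of the reads of the other. In 25 pairs it had at least 99%, and in 8 pairs the counts were equal in every library, for example 5151 reads for miR-210-3p and 5151 for its antisense partner miR-3574. The miR-218 pair stood in place 32 from the top. In the other 12 pairs the share went down to 2.23%, the value of miR-126b beside miR-126a-5p, so not every antisense pair was counted alike.

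**Figure D1:**
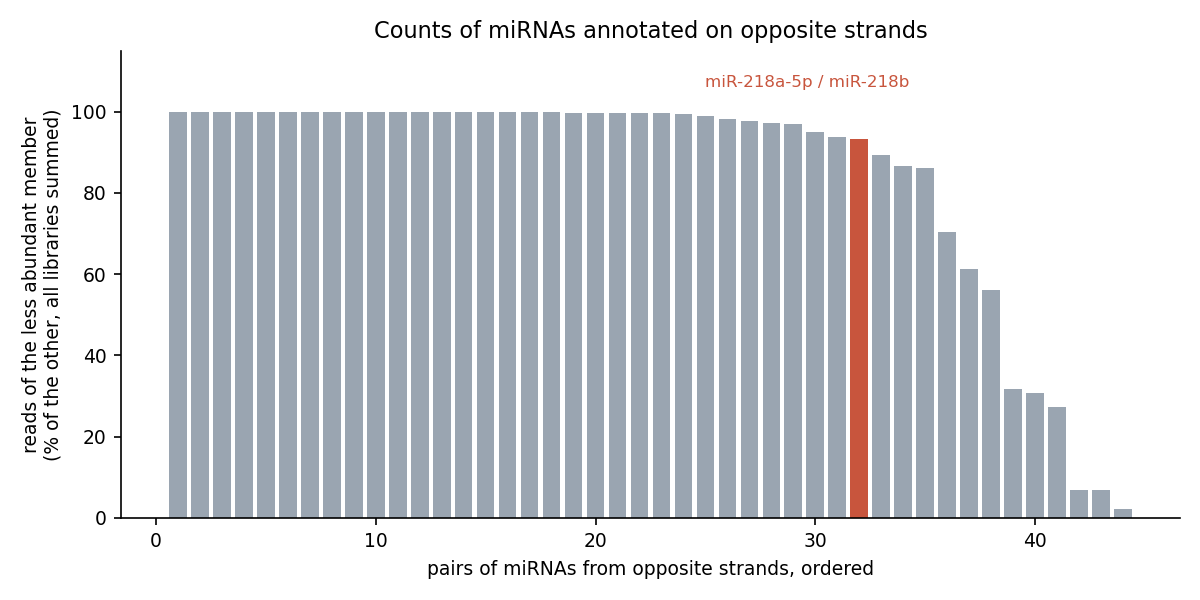
Each bar is 1 of 44 pairs of miRNAs annotated on opposite strands, ordered along the horizontal axis, and its height is the reads of the less abundant member as a percentage of those of the other, summed over 24 libraries. The miR-218 pair, in red, stands at 93.3%, the lowest of the 32 pairs at 90% or more.

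Reads counted on miRNAs lay between 6584345 and 14828269 per PVN library and between 9463321 and 14913564 per CEA library, and levels are given as CPM, counts scaled by these totals. The library CEA HT replicate 1 stood apart, with a TMM factor (edgeR's correction of the library total) of 0.822 against 0.976 to 1.06 in the other libraries, and with miR-148a-3p as its most abundant miRNA at 16.1% of its counts. In the other CEA libraries miR-9a-5p led with 11.2% to 12.9%, and in the PVN libraries miR-7a-5p, which is known to be abundant in the hypothalamus, led with 12.5% to 15.7%. No list of markers of the PVN or the CEA was used, so which nucleus a library came from was not checked by markers. The 12 listed neuronal miRNAs had reads in every library of both nuclei, which does not tell the nuclei apart.

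miR-218a-5p and miR-218b were more abundant in the CEA than in the PVN. In the PVN, miR-218a-5p was at 12665 CPM in its lowest library, 14357 at the median and 16751 in its highest, and in the CEA at 16948, 23133 and 29253. All 12 CEA libraries were above all 12 PVN libraries, and 11.6% of all miRNAs were separated in this way, in either direction. The mean was 14404 ± 1274 CPM (SD, n = 12) in the PVN and 23392 ± 3939 in the CEA, which is 1.62-fold higher, and miR-218a-5p was in place 14 of all miRNAs in each nucleus. By group it was in place 14 in every PVN group, and in the CEA in place 8 in NC, 9 in HT and 15 in HT+EA and HT+SEA. Places and library totals count both names of an antisense pair.

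In a fit over all 24 libraries with the treatment as a covariate, the log2 fold change of miR-218a-5p (PVN over CEA) was -0.74 (standard error 0.0732), with an adjusted p of 1.27e-10 (edgeR, quasi-likelihood, adjusted by Benjamini and Hochberg over all miRNAs tested). In that fit 39.9% of all 1098 miRNAs were called at an adjusted p under 0.05, 221 higher and 217 lower in the PVN, so a difference between the nuclei was common, and 62.0% of all miRNAs had a fold change of the same size or smaller. For miR-218b the levels were 11769, 13290 and 15972 CPM in the PVN and 15453, 21511 and 27372 in the CEA, again as the lowest, median and highest library. Its highest PVN library was above its lowest CEA library. The log2 fold change was -0.72 (standard error 0.0744, adjusted p = 3.15e-10 by edgeR), which does not add to the result of miR-218a-5p where both names hold the same reads.

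The direction was the same in each treatment. The mean level of miR-218a-5p in the CEA was 1.75 times that in the PVN in NC rats, 1.73 times in HT, 1.58 times in HT+EA and 1.44 times in HT+SEA. With each treatment fitted on its own, the log2 fold change was -0.83 in NC, -0.96 in HT, -0.69 in HT+EA and -0.55 in HT+SEA, and the adjusted p was at most 0.00111 by edgeR. These fits called 25.3%, 20.7%, 26.3% and 23.9% of all miRNAs in the same order. Within each treatment the 3 PVN libraries did not overlap the 3 CEA libraries, for miR-218a-5p or for miR-218b, which was so for 34.6% of all miRNAs in NC, 31.1% in HT, 35.8% in HT+EA and 34.3% in HT+SEA.

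Over the 8 groups, the order of mean levels of miR-218a-5p began with CEA NC at 25760 ± 2327 CPM (SD, n = 3) and CEA HT at 25672 ± 3844. CEA HT+SEA followed at 21787 ± 4659 and CEA HT+EA at 20349 ± 3077. The PVN groups came next, with PVN HT+SEA at 15147 ± 1663, PVN HT at 14826 ± 832 and PVN NC at 14757 ± 834, and PVN HT+EA was the lowest at 12887 ± 200.2. Neighbours in this order overlapped in their libraries, except at the step from CEA HT+EA to PVN HT+SEA and at the step from PVN NC to PVN HT+EA. The order was the same for miR-218b, from 23951 ± 2200 CPM in CEA NC to 12076 ± 268.9 in PVN HT+EA, but there CEA HT+EA and PVN HT+SEA also overlapped.

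**Figure D2:**
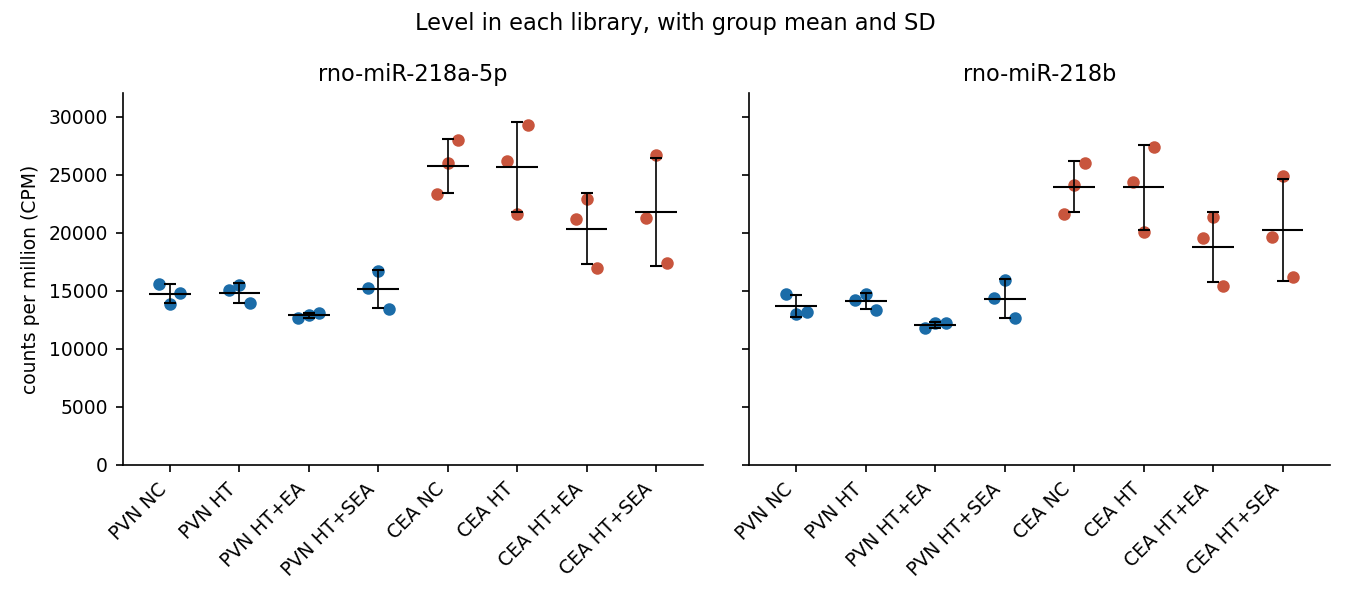
Level of miR-218a-5p (left) and miR-218b (right) in CPM in each of the 24 libraries by nucleus and treatment, PVN in blue and CEA in red, with a line for the group mean and a bar for the SD. The CEA groups, with means from 20349 to 25760 CPM for miR-218a-5p, lie above the PVN groups, with means from 12887 to 15147 CPM.

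Other neuronal miRNAs also differed between the nuclei. Of 12 neuron-enriched miRNAs, 7 were called lower in the PVN and 0 higher, with a median log2 fold change of -0.29, against 0.03 over all miRNAs. The counts of this and of the lists that follow stand beside a call of 39.9% of all 1098 miRNAs, 221 higher and 217 lower. miR-128-3p, a regulator of neuronal excitability, was at 10357 ± 1942 CPM (SD, n = 12) in the PVN and 25465 ± 3781 in the CEA (log2 fold change -1.35, adjusted p = 1.76e-15 by edgeR). miR-129-5p, at 6022 and 6088 CPM, was not called (adjusted p = 0.403 by edgeR). The summed level of the list spanned 112916 to 127751 CPM over the PVN libraries and 148769 to 173520 CPM over those of the CEA.

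The miRNAs in introns of other genes went both ways. Of 12 such miRNAs of protein-coding genes, 4 were higher and 5 lower in the PVN, with a median of -0.09. The extremes were miR-7a-5p, listed under Hnrnpk, with a log2 fold change of 1.98, and miR-139-5p, listed under Pde2a, with -2.28. Both lists share miR-128-3p, miR-149-5p and miR-153-3p.

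**Figure D3:**
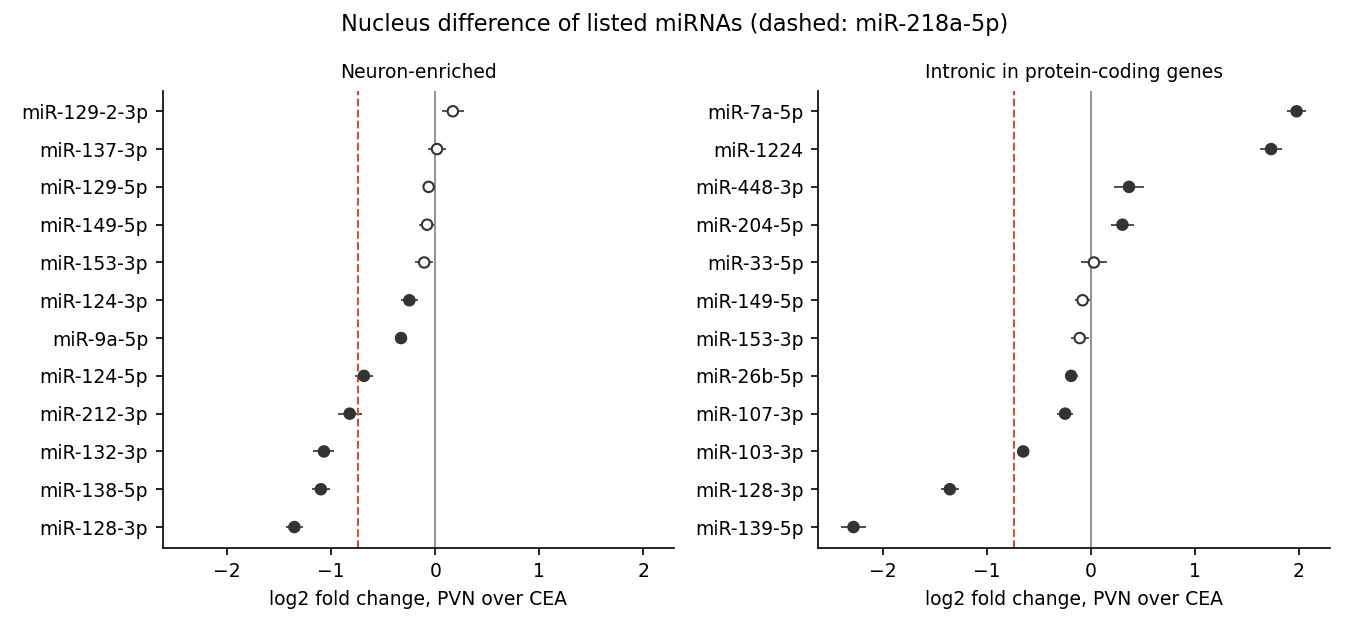
Log2 fold change between the PVN and the CEA, with its standard error as a bar, for 12 neuron-enriched miRNAs (left) and 12 miRNAs in introns of protein-coding genes (right). Filled points had an adjusted p under 0.05, and the dashed line marks miR-218a-5p at -0.74, which 4 of the neuron-enriched miRNAs passed on the left side.

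Markers of other cell types moved with the nucleus as well, and their part in the difference of miR-218 was not tested. All 4 oligodendrocyte miRNAs were lower in the PVN (median log2 fold change -1.02), with a summed level of 1973 to 3641 CPM there and 4333 to 8775 in the CEA. Of 6 miRNAs of ependyma, choroid plexus and epithelium, 5 were higher in the PVN (median 1.68), with sums of 2330 to 4028 CPM against 196.1 to 1158. The other was not called (log2 fold change -0.30, adjusted p = 0.323 by edgeR). Most of these sums came from miR-34c-5p, at a mean of 2821 CPM in the PVN and 670.6 in the CEA. Of 4 endothelial and mural miRNAs, 3 were lower in the PVN (median -0.30), with sums of 28018 to 33344 CPM against 34889 to 40087. Of 5 microglial and myeloid miRNAs, 1 was higher and 2 were lower (median -0.15), with sums of 234.4 to 381.1 CPM in the PVN and 236.1 to 423.4 in the CEA. Of 4 red cell miRNAs, 2 were higher and 0 lower (median 0.33), with sums of 227.5 to 335.5 and 94.5 to 331.8 CPM, and of 3 muscle miRNAs 0 were called (median -0.18), with sums of 19.7 to 109.2 and 21.3 to 51.4 CPM. None of these markers was at 0 in any library. In tissue, fewer cells of a type and less RNA per cell cannot be told apart.

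The miRNAs most like miR-218a-5p over the 24 libraries, in log2 level and among 362 known miRNAs of at least 10 CPM, were miR-132-5p (Pearson r = 0.939), miR-139-5p (0.927), miR-128-3p (0.909), miR-132-3p (0.908) and miR-383-5p (0.904). All 5 were lower in the PVN, which the choice by likeness to miR-218a-5p favours, so it is no separate result. After the group means were subtracted, which leaves the differences between libraries of 1 group, the most alike were miR-132-5p (r = 0.759), miR-337-5p (0.740), miR-139-3p (0.712), miR-139-5p (0.689) and miR-299a-3p (0.678). miR-132-5p led both orders, at 1731 CPM in the PVN and 3342 in the CEA. These values describe 24 libraries that share their scaling and are given without a test.

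Between HT and NC rats miR-218a-5p was not called in either nucleus. In the PVN it was at 15567, 13900 and 14805 CPM in the NC libraries and at 15039, 15532 and 13908 in the HT libraries, and the groups overlapped. The log2 fold change (HT over NC) was -0.02 (standard error 0.114, adjusted p = 0.984 by edgeR). In the CEA it was at 23328, 25989 and 27965 CPM in NC and at 26152, 21611 and 29253 in HT, and the log2 fold change was 0.08 (standard error 0.173, adjusted p = 0.9996 by edgeR). For miR-218b the values were 0.01 in the PVN and 0.08 in the CEA. The value of miR-218a-5p in the CEA moved with single libraries, from 0.28 without HT replicate 2 to -0.043 without HT replicate 1, and was not called with any of the 6 left out. Here and in the other comparisons of treatments, a call means a p under 0.05 before adjustment, which 10.9% of all miRNAs reached in the PVN and 3.82% in the CEA. None of the 4 members was among them. The 38 called in the CEA became 66, 18 and 24 without NC replicate 1, 2 and 3.

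After EA, miR-218a-5p was lower than after sham EA in the PVN. The HT+EA libraries were at 12665, 12943 and 13053 CPM and the HT+SEA libraries at 15259, 16751 and 13431. All 3 HT+EA libraries were below all HT+SEA libraries, and also below all PVN libraries of the NC and HT groups. Of all miRNAs, in either direction, the HT+EA libraries did not overlap those of HT+SEA for 11.3%, those of NC for 14.9% and those of HT for 15.7%, and 3 against 3 libraries cannot give an exact two-sided permutation p below 0.1. The log2 fold change (HT+EA over HT+SEA) was -0.25 (standard error 0.0910, adjusted p = 0.185 by edgeR), so it was called before adjustment and not after it. For miR-218b it was -0.26 (standard error 0.0908, adjusted p = 0.137 by edgeR), with the same outcome. With the replicate number as a block, miR-218b passed adjustment (adjusted p = 0.0365 by edgeR) and miR-218a-5p did not (adjusted p = 0.0574 by edgeR). Both names, which may hold the same reads, were called in a comparison that called 7.14% of all miRNAs. The call rested on HT+SEA replicate 2: without it the log2 fold change of miR-218a-5p was -0.14 and that of miR-218b -0.15, neither of them called (adjusted p = 0.857 by edgeR for both). Among all miRNAs of this comparison, 27 had an adjusted p under 0.05.

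Against the HT group the difference in the PVN was not called. The 3 HT+EA libraries were below the 3 HT libraries for both names, where 15.7% of all miRNAs did not overlap, in either direction. The log2 fold change was -0.17 for miR-218a-5p (standard error 0.0989, adjusted p = 0.527 by edgeR) and -0.19 for miR-218b (adjusted p = 0.457 by edgeR), while 11.4% of all miRNAs were called. Of 11 other settings, 4 gave a call for miR-218a-5p and 8 for miR-218b, with DESeq2, the tool of the study, among the latter only. Leaving out HT replicate 3 also gave a call, with -0.25 for miR-218a-5p (adjusted p = 0.0587 by edgeR) and -0.27 for miR-218b (adjusted p = 0.0385 by edgeR). miR-218b was also called without HT+EA replicate 2 (-0.22) and without HT+EA replicate 3 (-0.24). Sham EA gave 0.04 and 0.03 against HT, not called, in a comparison that called 8.3% of all miRNAs. That is 83 miRNAs, and 36 were called without HT+SEA replicate 1 and 25 without HT+SEA replicate 3.

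In the CEA, miR-218a-5p was lower in the HT+EA group than in the HT group. The HT+EA libraries were at 21163, 22938 and 16948 CPM, against 26152, 21611 and 29253 in HT, so that HT+EA replicate 2 lay above HT replicate 2 and the groups overlapped. The log2 fold change was -0.49 for miR-218a-5p and -0.50 for miR-218b (standard errors 0.166 and 0.167, adjusted p = 0.386 by edgeR for both). Both were called before adjustment, as were 5.28% of all miRNAs, and not after it. Without HT replicate 1, the library that stood apart, the log2 fold change of miR-218a-5p was -0.37 and still called (adjusted p = 0.282 by edgeR). Without HT replicate 2 it was -0.68 (adjusted p = 0.00739 by edgeR) and that of miR-218b -0.69 (adjusted p = 0.00582 by edgeR), so that both passed adjustment. The count over all miRNAs went from 53 to 25 without HT+EA replicate 2. With library totals alone as the scale it was -0.34 and called (adjusted p = 0.794 by edgeR), where the median of all miRNAs moved up by 0.132.

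Sham EA pointed the same way in the CEA without being called. The HT+SEA libraries were at 21285, 26677 and 17399 CPM, a wider range than in any other group. The log2 fold change against HT was -0.34 for miR-218a-5p (standard error 0.187) and -0.35 for miR-218b (adjusted p = 0.956 by edgeR for both), and 4.7% of all miRNAs were called, that is 47, or 17 without HT+SEA replicate 1. Without HT replicate 2, which was the lowest HT library, both were -0.52 and called, with adjusted p of 0.300 and 0.292 by edgeR. Without HT+SEA replicate 2 they were -0.53 and -0.54 and called, with adjusted p of 0.607 and 0.590. It was smaller without HT+SEA replicate 3, where miR-218a-5p was at -0.22 and miR-218b at -0.22, and without HT replicate 1, the library that stood apart, where miR-218a-5p was at -0.23, none of them called. EA against sham EA gave -0.13 and -0.14 (standard errors 0.153 and 0.154, adjusted p = 0.997 by edgeR for both), which was not called, in a comparison that called 2.24% of all miRNAs (23, or 15 without HT+EA replicate 2 and 37 without HT+SEA replicate 3). The sign turned without HT+SEA replicate 2 (0.066 and 0.065), and without HT+SEA replicate 3 the values were -0.28 for both names, with miR-218b called. The comparisons with HT share the same 3 HT libraries.

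No difference in these effects between the nuclei was detected. The HT effect differed by -0.18 (PVN minus CEA, log2, standard error 0.216, adjusted p = 0.9999 by edgeR) for miR-218a-5p, and the EA effect by 0.27 (standard error 0.205, adjusted p = 0.9998). At an adjusted p under 0.05, the share of all miRNAs called was 0.188% for HT and 0% for EA, where edgeR gave 20 miRNAs at an unadjusted p under 0.05.

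**Figure D4:**
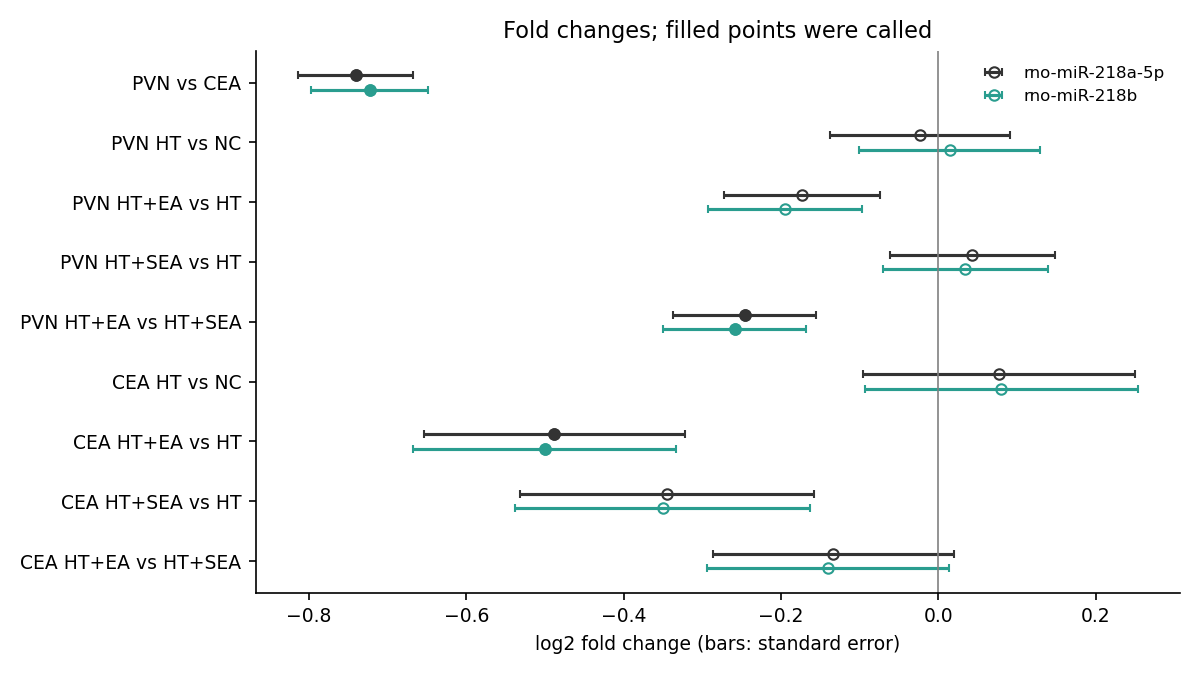
Log2 fold change of miR-218a-5p (black) and miR-218b (green) in the comparison of the nuclei and in 8 comparisons of treatments, with the standard error as a bar. Filled points were called (adjusted p under 0.05 for the nuclei, unadjusted p under 0.05 for treatments), and the nucleus difference of -0.74 is the largest, followed by HT+EA against HT in the CEA at -0.49.

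Cell type markers were called in every comparison of treatments, from 5 to 13 of the 38 miRNAs in the 7 lists of cell types. They were 8 of 38 between HT+EA and HT in the CEA, where 5.28% of all miRNAs were called, and 7 of 38 between HT+EA and HT+SEA in the PVN, where 7.14% were. In the CEA, 2 of 6 miRNAs of ependyma, choroid plexus and epithelium were higher in HT+EA than in HT, with summed levels of 614.1 to 851.7 CPM and 196.1 to 986.0 CPM, and 1 of 4 oligodendrocyte miRNAs was lower, with a median of 0.03 and sums of 5546 to 7592 CPM in HT+EA and 4545 to 6063 CPM in HT. Of the neuron-enriched miRNAs, 3 of 12 were lower there and 0 higher, with a median of -0.14, and the other calls were 1 microglial and myeloid miRNA (higher) and 1 of red cells (lower). In the PVN, between HT+EA and HT+SEA, 0 of 6 ependymal and epithelial miRNAs were called, and 1 of 4 oligodendrocyte, 1 of 12 neuron-enriched and 1 of 4 red cell miRNAs were lower. Of 5 microglial and myeloid miRNAs 1 was higher and 1 lower there, and 1 of 4 endothelial and mural and 1 of 3 muscle miRNAs were higher. Between HT+EA and HT in the PVN 13 of 38 were called (11.4% of all miRNAs), among them 3 of 6 ependymal and epithelial miRNAs, all higher (median 0.84), and 3 of 12 neuron-enriched ones, all lower (median -0.12). Between HT+SEA and HT in the CEA 9 of 38 were called (4.7% of all miRNAs), among them 4 of 6 ependymal and epithelial miRNAs, all higher (median 1.02), and 2 of 12 neuron-enriched ones, both lower (median -0.067). Between HT and NC 13 of 38 were called in the PVN (10.9% of all miRNAs) and 10 of 38 in the CEA (3.82%). Among them were 4 of 6 ependymal and epithelial miRNAs in each nucleus, all lower in HT (medians -1.12 and -1.06). Of 12 neuron-enriched miRNAs, 3 were higher in HT in the PVN and 1 in the CEA, and 0 were lower. The part of these markers in the values of miR-218 was not tested.

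The 3p arms were rare. Over 12 libraries each, miR-218a-1-3p had 48 reads in the PVN and 16 in the CEA, and miR-218a-2-3p had 40 and 96. For every read of either 3p arm there were 21859 reads of miR-218a-5p in the PVN and 31638 in the CEA. A count of 3, the limit that a count of 0 allows in 1 library, equals 0.201 to 0.456 CPM. miR-218a-1-3p had more than 3 reads in 4 of 12 PVN and 1 of 12 CEA libraries, and miR-218a-2-3p in 5 and 10. These limits and the intervals below cover counting error only.

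The 3p arms of the Slit2 and the Slit3 hairpin differed between the nuclei in opposite directions. miR-218a-1-3p had from 2 to 9 reads per library in the PVN (median 3) and from 0 to 4 in the CEA (median 1), where 5 libraries had none. Pooled over the libraries of a nucleus this was 0.357 CPM (exact Poisson interval at 95%, 0.263 to 0.473) and 0.105 CPM (0.0601 to 0.171), and the log2 fold change was 1.73 (standard error 0.505, adjusted p = 0.00536 by edgeR). miR-218a-2-3p had from 0 to 11 reads in the PVN (median 3) and from 1 to 16 in the CEA (median 7.5), or 0.297 CPM (0.212 to 0.405) and 0.630 CPM (0.511 to 0.770), and its log2 fold change was -1.24 (standard error 0.386, adjusted p = 0.00914 by edgeR). For both arms the libraries of the nuclei overlapped.

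The 3p arms were also compared with each other, as a ratio within each library. With 0.5 added to each count, the log2 ratio of miR-218a-2-3p to miR-218a-1-3p was -0.58 ± 1.38 (SD, n = 12) in the PVN and 2.43 ± 1.76 in the CEA, a difference (PVN minus CEA) of -3.01 (two-sided permutation test with 100000 resamples, p = 0.00019, adjusted over 3 ratios 0.000285). It was lower in the PVN in 10 of 12 pairs of libraries with the same treatment and replicate number, equal in 1 and higher in 1. Where an arm had a count of 0, the ratio depends on the depth of the library. With libraries that held a 0 left out, 17 remained and the difference was -1.54 (permutation p = 0.0204). Left out were 5 CEA libraries without miR-218a-1-3p and 2 PVN libraries without miR-218a-2-3p, so this filter acts on the tested counts. The difference of -3.01 was thus changed by both choices. The size of the difference therefore depended on how a count of 0 was treated, while the direction was kept.

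Against miR-218a-5p, the log2 ratio of miR-218a-1-3p was -15.2 ± 0.823 (SD, n = 12) in the PVN and -17.8 ± 1.48 in the CEA, a difference of 2.52 (permutation p = 5e-05, adjusted 0.00015), higher in the PVN in 12 of 12 such pairs. With libraries that held a 0 left out, 19 remained and the difference was 1.52 (permutation p = 0.00191), so its size too depended on how a count of 0 was treated. The 5 left out were all CEA libraries, so this filter acts on the tested counts of 1 nucleus. Pooled over all libraries of a nucleus, there was 1 read of miR-218a-1-3p for 40074 of miR-218a-5p in the PVN and for 221468 in the CEA. For miR-218a-2-3p the difference was -0.50 (permutation p = 0.251, adjusted 0.251), with 1 read for 48089 and for 36911. Since miR-218a-5p comes from both hairpins, these ratios are not the balance of arms within 1 hairpin.

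Within single treatments the 3p arms were not called. The log2 fold change of miR-218a-1-3p between the nuclei was 2.19 in NC, 3.10 in HT, 0.47 in HT+EA and 2.04 in HT+SEA, and that of miR-218a-2-3p -2.67, -1.45, -1.10 and -0.67, with adjusted p from 0.0541 to 0.733 by edgeR. All 8 kept the direction of the fit over all libraries. Between treatments, 0 of 16 tests of the 3p arms (2 arms in 8 comparisons) reached an unadjusted p under 0.05 by edgeR, and the same held for DESeq2. Over all miRNAs the share called in these 8 comparisons was 2.24% to 11.4% by edgeR and 0.703% to 8.12% by DESeq2, so that a count of 0 in 16 lies near the background. In the CEA, miR-218a-1-3p had 3, 4 and 2 reads in the HT+EA libraries and 0, 1 and 0 in the HT libraries (adjusted p = 0.897 by edgeR), groups that did not overlap, as for 9.36% of all miRNAs, but lay near the limit of 3 reads.

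**Figure D5:**
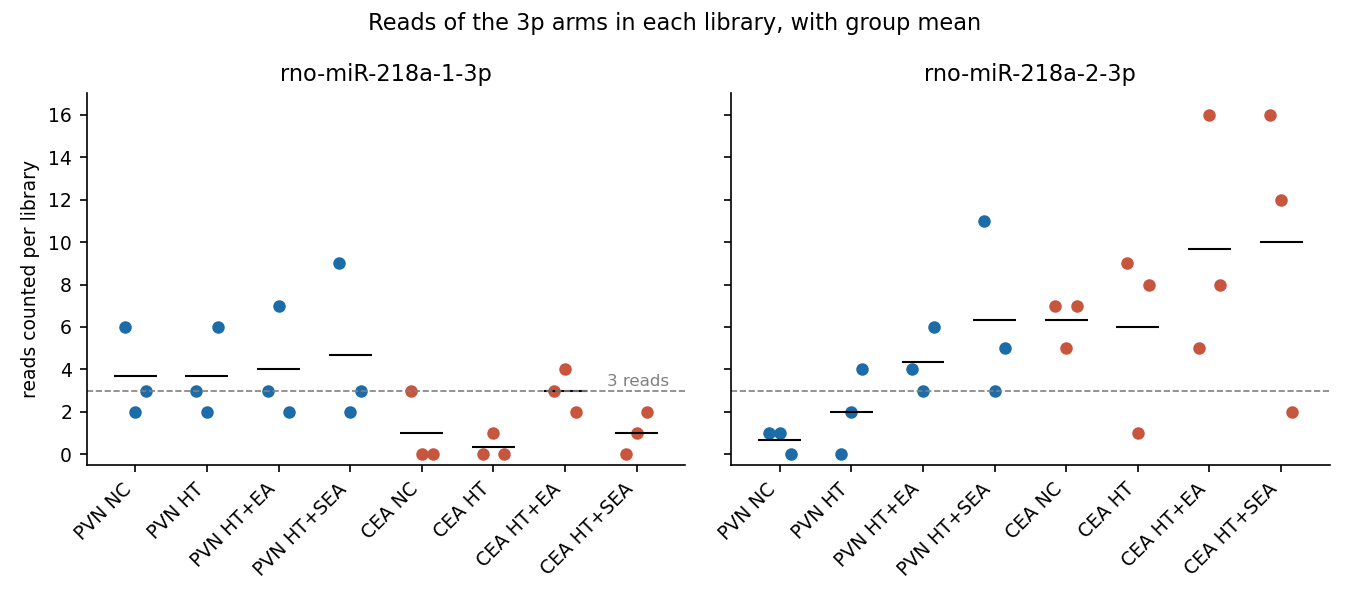
Reads counted on miR-218a-1-3p (left) and miR-218a-2-3p (right) in each of the 24 libraries by nucleus and treatment, PVN in blue and CEA in red, with a line for the group mean and a dashed line at 3 reads. miR-218a-1-3p sits higher in the PVN (48 reads against 16) and miR-218a-2-3p higher in the CEA (96 against 40).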

How the data were processed

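Small RNA libraries (NEBNext kit) were sequenced, and adapter-containing, ambiguous and low-quality reads were filtered out. The authors deposited raw counts of reads per miRNA in 24 libraries, for 1098 miRNAs, of which 703 are known. The study's methods name HISAT2 and featureCounts with the rat genome for the sequencing as a whole. The submitters' processing notes name the same tools beside human builds, and neither says how strand or reads matching several loci were treated in the miRNA counts. A further 24 columns hold counts rescaled by the library total and were not used, nor were the libraries of mRNA and circRNA.

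Counts were fitted with edgeR 4.0.16 (limma 3.58.1, R 4.3.3) by TMM normalization and the quasi-likelihood test (glmQLFit, glmQLFTest), keeping miRNAs that had 1 count or more, and p-values were adjusted by Benjamini and Hochberg over all miRNAs tested. Treatments were compared on the 6 libraries of both groups and called at p under 0.05 before adjustment, as in the study, which used DESeq2 (version 1.42.0 as an alternative here). The nuclei were compared over 24 libraries with treatment as a covariate, and effects between nuclei as an interaction over 12, at an adjusted p under 0.05. Standard errors were derived from the fold change and the F statistic. Ratios of arms were tested by permutation (numpy 2.4.6, pandas 2.3.3, Python 3.11.15), intervals came from scipy 1.17.1 and figures from matplotlib 3.10.9. The scripts were tested on simulated data.

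The members, the lists and the comparisons were chosen with earlier results of these data known. Besides the 4 members, the miRNAs named are the 5 most like miR-218a-5p by Pearson r, with and without the group means, examples from the 4 most abundant of a list, the miRNAs shared by both lists, and those that a statement about libraries or antisense pairs turned on, chosen after their values were seen. The fits of treatments drew their spread mostly from all miRNAs together, with prior degrees of freedom from 23.3 (PVN HT+EA with HT) to infinite (CEA HT with NC and PVN HT+EA with HT+SEA).

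Replicate numbers are shared by all groups. Every same-numbered pair of libraries deviated together (r over 0.1 across 366 miRNAs) for HT+EA with HT in the PVN and for HT with NC in the CEA, and not in the other 6 comparisons of treatments. Between the nuclei it held within NC, HT+EA and HT+SEA and not within HT. The pairing comes from these correlations, since the labels do not say what a number marks.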

Additional observations from a re-analysis of the deposited data

How the results depend on the processing

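There were 825 alternatives to 47 results (log2 fold changes of the 4 members and log2 ratios of their arms). Of these alternatives 744 were counted as unchanged, that is with the direction and the side of the threshold kept. Ratios within single treatments had no p and were counted so if they kept the direction and moved by less than the SD within groups. The nucleus difference of miR-218a-5p lay between -0.96 and -0.55 and that of miR-218b between -0.93 and -0.53 over the settings, and both were called in all of them. Without any 1 of the 24 libraries all 4 members kept their call between the nuclei. With the replicate block, the values of miR-218a-5p were -0.74 between the nuclei, -0.24 for HT+EA with HT+SEA in the PVN and -0.48 for HT+EA with HT in the CEA, and the block changed no call of a member. For miR-218b in HT+EA with HT+SEA in the PVN it gave -0.25 with an adjusted p of 0.0365 by edgeR, which passes adjustment where the fit without it did not. The ratio of miR-218a-2-3p to miR-218a-1-3p had an exact permutation p of 0.00391 with nuclei exchanged within treatment and replicate number (replicate block). The block of treatment and replicate number and the fit without 1 of each antisense pair were chosen after seeing the data.

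Against HT, HT+EA in the PVN became called for miR-218a-5p with DESeq2-type size factors (-0.212), library totals (-0.202), filterByExpr (-0.204) and at least 10 counts (-0.198). For miR-218b this held with DESeq2 (-0.234), its size factors (-0.234), library totals (-0.224), 1 of each antisense pair left out (-0.200), filterByExpr (-0.226), at least 10 counts (-0.220), identical counts counted once (-0.203) and all 12 libraries of the nucleus (-0.207). HT+SEA with HT in the CEA became called for miR-218a-5p and miR-218b with a robust prior (-0.345 and -0.351) and with all 12 libraries (-0.347 and -0.353).

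HT with NC, never called, changed sign in the PVN for miR-218a-5p with library totals (0.00671) and upper quartile scaling (0.0216), and for miR-218b with at least 10 counts (-0.00539) and all 12 libraries (-0.0112). In the CEA it did so with library totals for miR-218a-5p (-0.00495) and miR-218b (-0.00146), as did the difference of this effect between nuclei (0.0117 and 0.0473). Library totals moved the median of all miRNAs by 0.175 in that last fit, by 0.132 for HT+EA with HT in the CEA and by -0.112 for the difference of the EA effect, and upper quartile scaling moved it by -0.143 between the nuclei. Within HT+EA the ratio of miR-218a-1-3p to miR-218a-5p differed by 0.981 and that of miR-218a-2-3p to miR-218a-1-3p by -1.22, within NC the latter by -4.71, and within HT+SEA that of miR-218a-2-3p to miR-218a-5p by 0.0884. Causes were not tested.

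Leaving out each library in turn gave, for HT with NC in the PVN, -0.0929 to 0.0190 (miR-218a-5p), -0.0517 to 0.0506 (miR-218b) and -0.831 to 0.311 (miR-218a-1-3p). HT+EA with HT in the PVN gave -0.255 to -0.119, -0.269 to -0.146 and -1.02 to 0.107 in the same order, and HT+SEA with HT -0.0871 to 0.129, -0.103 to 0.123 and -0.981 to 0.282. HT+EA with HT+SEA in the PVN gave -0.310 to -0.141, -0.325 to -0.146, -0.942 to 0.671 and, for miR-218a-2-3p, -0.887 to 0.101. In the CEA, HT with NC gave -0.0431 to 0.276, -0.0390 to 0.282, -3.24 to 1.93 and -0.652 to 0.377 for the 4 members, and changed sign without HT replicate 1 for the first and second. HT+EA with HT gave -0.676 to -0.364 (miR-218a-5p) and -0.690 to -0.369 (miR-218b), called throughout, 1.83 to 4.52 (miR-218a-1-3p, called without HT replicate 2) and -0.336 to 0.807 (miR-218a-2-3p). HT+SEA with HT gave -0.532 to -0.218 (miR-218a-5p), -0.543 to -0.224 (miR-218b) and -0.0310 to 0.973 (miR-218a-2-3p), and HT+EA with HT+SEA -0.275 to 0.0655, -0.282 to 0.0646 (called without HT+SEA replicate 3) and -0.749 to 0.295.

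Counts over all miRNAs differed between settings, by more than 1.5 times in those given here. In the CEA, DESeq2 called 7 for HT with NC (38 by edgeR), 26 for HT+EA with HT (53), 21 for HT+SEA with HT (47) and 8 for HT+EA with HT+SEA (23), and in the PVN 51 for HT+SEA with HT (83) and 47 for HT+EA with HT+SEA (71). The replicate block called 31 for HT+SEA with HT in the CEA. filterByExpr, which tests fewer miRNAs, called 65 of 509 for HT with NC in the PVN, where the filter of 1 count called 107 of 986, 47 for HT+SEA with HT there, and 7, 22, 11 and 9 for the comparisons in the CEA in the order above. A minimum of 10 counts gave 9, 30, 21 and 12 in the CEA, identical counts counted once gave 20 for HT with NC and 27 for HT+SEA with HT there, and all 12 libraries gave 45 for HT+EA with HT+SEA in the PVN. Smaller moves went up as well as down, for example to 127 with the replicate block (112) for HT+EA with HT and to 133 with all 12 libraries (107) for HT with NC, both in the PVN. The 3p arms are limited by depth, with 0 to 16 reads per library, and some filters left them untested.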
